A study of Mus musculus with 36 samples.

Results

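The desmosomal cadherins Dsg1a, Dsg1b, Dsg2, Dsg3, Dsc1, Dsc2 and Dsc3 were taken by their symbols from a table of read counts, where they make up 7 of 55358 genes. RNA had been sequenced from murine keratinocytes of 3 kinds, each cultured for 24 h or 72 h in low calcium medium (LCM, 50 µM CaCl2) or high calcium medium (HCM), which is LCM brought up by a further 1.2 mM CaCl2. This gave 12 groups of 3 libraries. WT and PKP4-KO cells had been isolated from the epidermis of newborn Pkp4+/+ and Pkp4-/- pups on a C57BL/6J background, the knockout allele lacking a critical exon. Rescue cells were PKP4-KO cells carrying a lentiviral vector for human PKP4 with EGFP at its N-terminus and had been selected with puromycin, a treatment that the labels do not give for WT and PKP4-KO cells. The series describes the 3 libraries of a group as biological replicates, but neither it nor the labels say that they came from separate animals or isolations, so the p-values below may measure a spread that is partly technical. Since the pups differed between WT and PKP4-KO, the genotype and the isolate cannot be told apart.

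Desmosomes are cell-cell junctions that couple the keratin filaments of neighbouring keratinocytes. Their transmembrane proteins, the desmogleins and desmocollins, bind in the calcium-dependent manner of cadherins in the extracellular space, while their tails hold plakoglobin and plakophilins, which link them to desmoplakin. In epidermis, desmoglein 3 and desmocollin 3 prevail in basal cells, desmoglein 1 and desmocollin 1 in suprabasal cells, and desmoglein 2 and desmocollin 2 are best known from simple epithelia and the heart. Raising the calcium concentration makes cultured keratinocytes assemble these junctions and begin to differentiate.

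All 7 genes lie in a single cluster of 643.6 kb on chromosome 18 (GRCm39, 20093987 to 20737581), which holds 9 protein-coding genes. The desmocollin genes are on the reverse strand, Dsc3 from 20093987 to 20135408, Dsc2 from 20163675 to 20192717 and Dsc1 from 20217241 to 20247928. The desmoglein genes follow on the forward strand, Dsg1a from 20443868 to 20476407, Dsg1b from 20509781 to 20543253, Dsg3 from 20643331 to 20680516 and Dsg2 from 20691074 to 20737581. The cluster also holds Dsg1c, which had 0 to 10 reads in each library and was not tested, and Dsg4, a desmoglein of the hair follicle, which was tested but had at most 16 reads in a library. Dsg1a and Dsg1b are close copies, and reads could be split or lost between them in counting. Their single values are therefore uncertain, and values for the sum of Dsg1a, Dsg1b and Dsg1c are given beside a number of comparisons.

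Library totals lay between 13602728 and 22467187 counts. Levels are given as CPM, read counts relative to the library size scaled with TMM factors, which correct library sizes for differences in RNA composition, and 3 counts correspond to 0.11 to 0.436 CPM. The basal keratins were abundant, with Krt5 at 8615 CPM or more and Krt14 at 14300 CPM or more in every group mean, while the summed markers of fibroblasts (6 genes), melanocytes (5), immune cells (5) and endothelial cells (3) reached at most 11.4, 2.03, 3.64 and 5.15 CPM in any library. Tyr and Cd207 had no read at all. Keratins of simple epithelia (5 genes, Krt7, Krt8, Krt18, Krt19 and Krt20) summed to 4.09 to 23.3 CPM in WT and PKP4-KO libraries and to 94.0 to 382 CPM in Rescue libraries, and their part in the Rescue comparisons was not tested. Murine Pkp4 had a median of 42.7 CPM in the 12 WT libraries, 8.57 in PKP4-KO and 8.63 in Rescue, and GFP-PKP4 had 280 CPM in Rescue (125 to 562), against 2.46 in WT and 1.88 in PKP4-KO, with up to 8.12 and 8.27 CPM in a library. The 3 PKP4-KO libraries of 72 h HCM stood apart, with TMM factors of 0.48 to 0.55 against 0.71 to 1.39 in the other 33 libraries and with 50.6% to 52.5% of their counts in the 100 most abundant genes against 29.0% to 44.6%. In bulk RNA, fewer cells that express a gene and less RNA per cell cannot be told apart.

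Dsg3 and Dsc3, the basal isoforms, made up most of the cadherin transcript pool in every group. Measured per kb of gene length, together they accounted for 96.1% ± 0.594 (SD, n = 3) of the summed level of the 7 members in PKP4-KO cells at 24 h LCM and for 89.9% ± 1.34 in WT cells. Their share was lowest after 72 h in HCM, when WT cells had 71.8% ± 0.523, PKP4-KO cells 53.5% ± 3.4 and Rescue cells 56% ± 1.1. These shares are ratios within a library, so that no scaling between libraries enters them.

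The suprabasal isoforms Dsg1a, Dsg1b and Dsc1 held a larger share at 72 h HCM than at 24 h LCM. Their joint share in WT was 9.32%, 7.51% and 6.85% in the 3 libraries of 24 h LCM and 24.5%, 23.9% and 22.4% in those of 72 h HCM. In PKP4-KO it was 3.99%, 3.30% and 3.44% at 24 h LCM and 48.2%, 42.5% and 42.2% at 72 h HCM. Rescue cells had 7.38%, 8.16% and 5.79% at 24 h LCM and 38.7%, 40.9% and 39.8% at 72 h HCM. Within each kind of cell the libraries of these 2 conditions did not overlap, and at 72 h HCM the WT libraries lay below all PKP4-KO and Rescue libraries. Dsc1 alone took 13.6% ± 3.49 of the pool in PKP4-KO and 13.8% ± 0.77 in Rescue at 72 h HCM, against 4.28% ± 0.984 in WT.

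**Figure D1:**
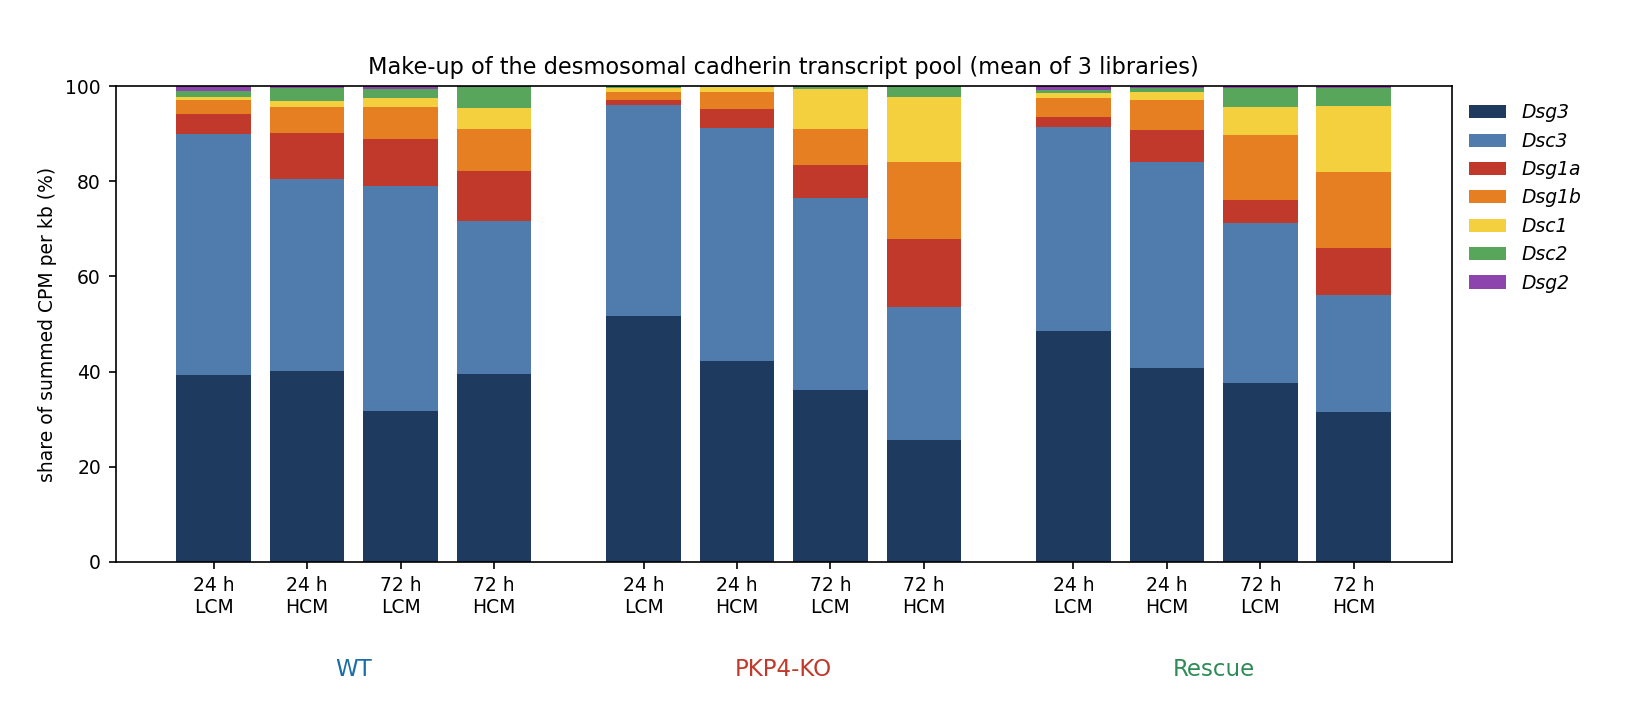
Share of each desmosomal cadherin in the summed CPM per kb of the 7 genes (%), as the mean of 3 libraries in each of the 12 groups. Dsg3 and Dsc3 fall from 96.1% of the pool at 24 h LCM to 53.5% at 72 h HCM in PKP4-KO cells and from 89.9% to 71.8% in WT cells.

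The whole pool was smaller in PKP4-KO cells. The summed level at 24 h HCM was 209 ± 71.1 CPM per kb for WT, 51.7 ± 12.5 for PKP4-KO and 163 ± 18.8 for Rescue (SD, n = 3), and the PKP4-KO libraries overlapped with neither of the other groups. After 72 h in HCM it was 122 ± 48.1 for WT, 60.1 ± 13.2 for PKP4-KO and 97.5 ± 10.5 for Rescue. There, the highest PKP4-KO library (74.4) exceeded the lowest WT library (67.3), replicate 3, while all Rescue libraries lay above PKP4-KO. This overlap is present only with TMM factors, which were lowest in that PKP4-KO group. Without them, its mean Dsg3 was 54.9 instead of 106 CPM and its mean Dsc3 46.3 instead of 89.9. In WT, Dsg3 went from 329 to 301 CPM and Dsc3 from 219 to 203.

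**Figure D2:**
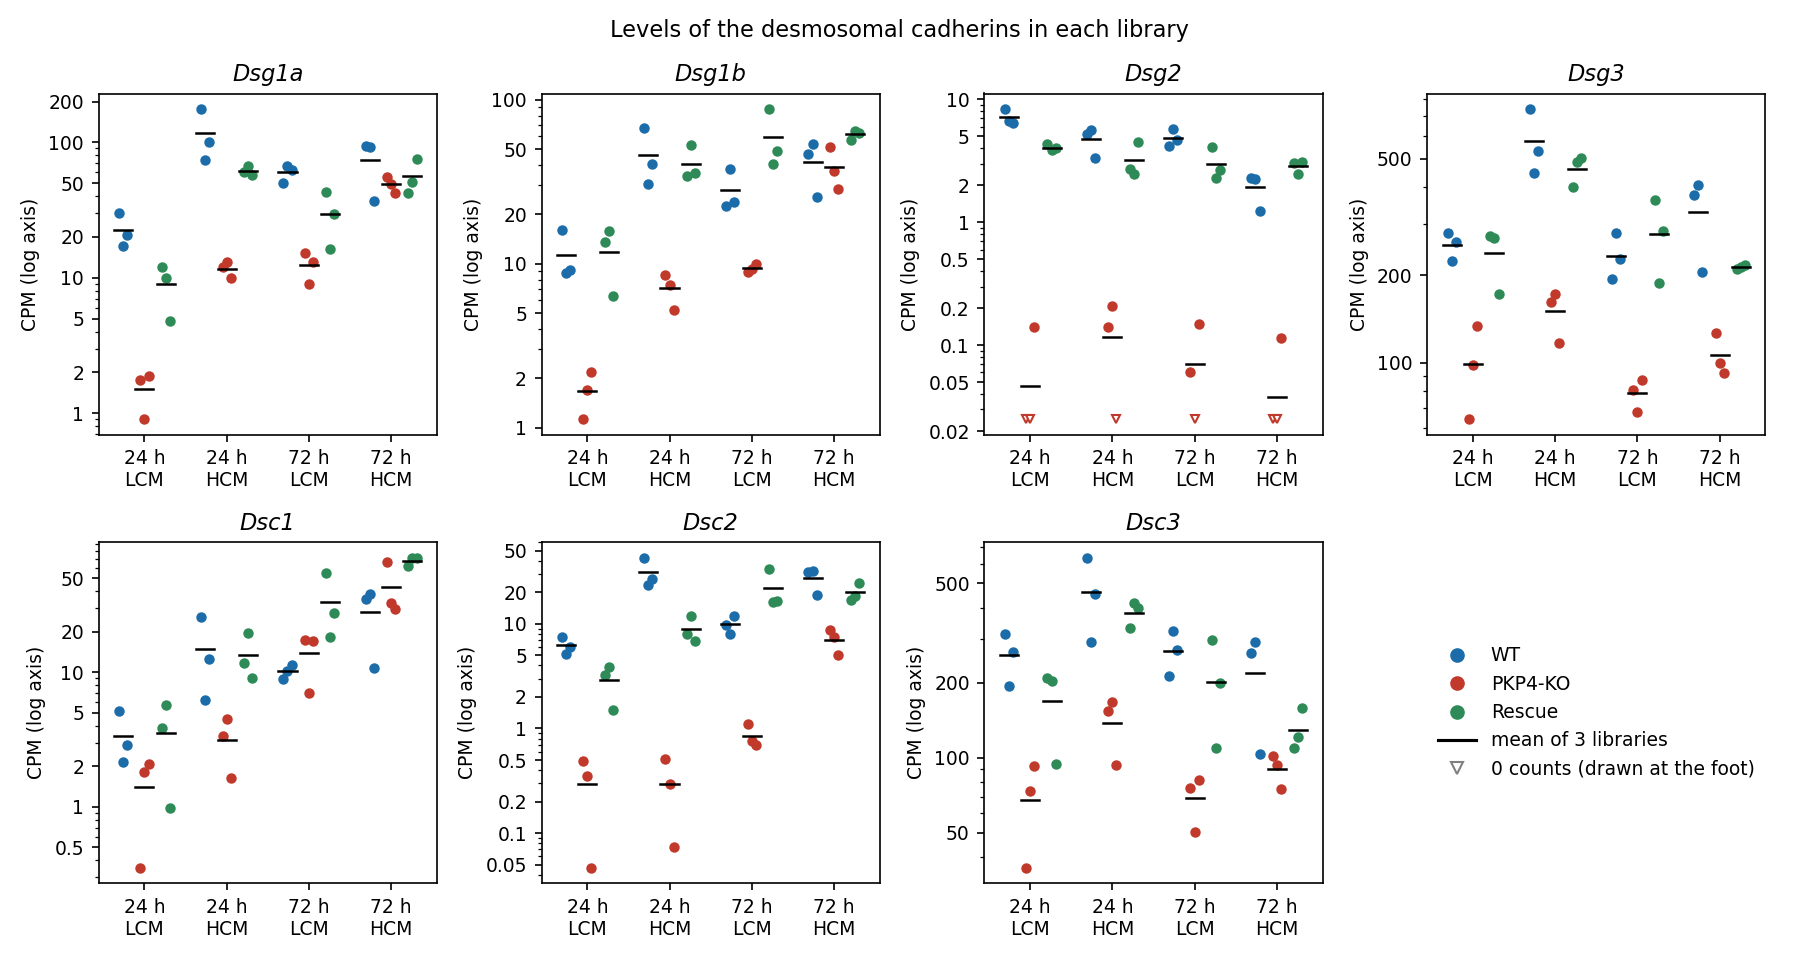
Level of each desmosomal cadherin in every library (CPM scaled with TMM factors, log axis) by culture condition, with points for libraries and bars for the mean of 3. Dsg2 stays at or below 0.209 CPM in all 12 PKP4-KO libraries. In PKP4-KO cells, Dsg1a and Dsg1b reach the range of WT libraries at 72 h HCM, Dsg1a only through WT replicate 3. Dsc1 reaches it at 72 h in both media.

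PKP4-KO was compared with WT in each culture condition, a difference of genotype and isolate together. In LCM at 24 h, 6 of the 7 members fell (adjusted p below 0.05, edgeR's quasi-likelihood test), where 20.6% of the 15114 tested genes were lower and 19.7% higher. At 24 h HCM all 7 fell, against 22.2% of all genes lower and 20.7% higher. At 72 h LCM 6 fell, against 23.8% lower and 21.3% higher, and at 72 h HCM 4 fell, against 29.9% lower and 21.9% higher. The median log2 fold change of the members was -2.73, -2.69, -1.96 and -1.29 in this order. The median of all tested genes lay between -0.07 and 0.02, but TMM scaling itself brings it near 0. No member was called higher in PKP4-KO in any of the 4 conditions.

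Dsg2, a desmoglein with a broad tissue range, was all but absent from PKP4-KO cells. In WT it had 158, 115 and 123 reads at 24 h LCM, 101, 78 and 66 at 24 h HCM, 84, 145 and 103 at 72 h LCM and 39, 38 and 12 at 72 h HCM. In PKP4-KO the corresponding reads were 0, 0 and 3, then 3, 5 and 0, then 1, 0 and 3, and finally 0, 0 and 1. Groups of WT and PKP4-KO did not overlap in any condition. The ratio of the summed counts over effective library sizes, WT to PKP4-KO, was 133 (exact 95% interval 45.0 to 645) at 24 h LCM, 34.1 (17.0 to 79.8) at 24 h HCM, 59.7 (23.1 to 221) at 72 h LCM and 48.0 (8.39 to 1915) at 72 h HCM. These intervals cover counting error only and leave out the spread between libraries, since the counts of the 3 libraries were summed. The reads also carry no molecular identifiers, so that duplicate reads may be counted. The fitted log2 fold changes, -6.90 ± 0.61 (SE), -5.09 ± 0.54, -5.80 ± 0.59 and -5.32 ± 0.80, depend on the prior count and on single reads, and all passed the test (adjusted p of 3.37e-06 or lower). At 24 h LCM and 72 h HCM, where PKP4-KO replicate 3 held the only reads of its group, the values without it were -10.01 and -8.17.

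Dsc2, the desmocollin found in both simple and stratified epithelia, also fell in each condition. It had 43.0, 23.7 and 26.6 CPM in WT at 24 h HCM and 0.513, 0.293 and 0.0739 CPM in PKP4-KO, which are 11, 7 and 1 reads. The groups were far apart, with a log2 fold change of -6.59 ± 0.50 (SE; adjusted p = 1.12e-11) and a ratio of summed counts of 98.8 (63.0 to 165). After 72 h in HCM, WT libraries had 31.6, 32.3 and 18.8 CPM and PKP4-KO libraries 8.64, 7.56 and 5.0 CPM. They still did not overlap, but the log2 fold change was -1.97 ± 0.38 (adjusted p = 0.000112). In LCM, Dsc2 was at -4.47 ± 0.51 for 24 h and -3.53 ± 0.44 for 72 h, with adjusted p-values of 4.39e-08 and 2.12e-07.

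The genes of desmoglein 1, which is the target of autoantibodies in pemphigus foliaceus, fell in all conditions but 72 h HCM. Dsg1a had 176, 74.2 and 101 CPM in WT at 24 h HCM and 12, 13.1 and 9.90 CPM in PKP4-KO (log2 fold change -3.33 ± 0.39 SE, adjusted p = 5.51e-08). Dsg1b had 67.0, 30.5 and 40.5 CPM in WT and 8.58, 7.45 and 5.25 CPM in PKP4-KO (-2.69 ± 0.37, adjusted p = 7.08e-07). Every PKP4-KO library lay below every WT library for both genes. In the 72 h HCM cultures, Dsg1a had 94.1, 92.1 and 36.9 CPM in WT and 55.9, 49.0 and 41.9 in PKP4-KO, and Dsg1b had 46.7, 53.4 and 25.6 in WT and 51.2, 36.9 and 28.6 in PKP4-KO. The groups overlapped for both, for Dsg1a only through replicate 3 of WT, and neither passed the test (-0.61 ± 0.36, adjusted p = 0.161, and -0.11 ± 0.35, adjusted p = 0.804). In LCM, Dsg1a fell by 3.90 on the log2 scale after 24 h and by 2.26 after 72 h, and Dsg1b fell by 2.73 and 1.58. Summed with Dsg1c, the copies gave -3.40, -3.12, -2.01 and -0.41 in the order 24 h LCM, 24 h HCM, 72 h LCM and 72 h HCM, the last with an adjusted p of 0.31.

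Dsg3 and Dsc3, the cadherins of basal keratinocytes, fell in each condition. Dsg3, the main target of autoantibodies in pemphigus vulgaris, had 741, 447 and 534 CPM in WT at 24 h HCM and 162, 173 and 117 in PKP4-KO. After 72 h in HCM it had 376, 408 and 205 CPM in WT and 127, 99.9 and 92.0 in PKP4-KO, so that the groups were separated at both times. Its log2 fold changes were -1.36 ± 0.27 (SE), -1.93 ± 0.27, -1.57 ± 0.27 and -1.64 ± 0.27 for 24 h LCM, 24 h HCM, 72 h LCM and 72 h HCM, and the adjusted p was 0.000162 or lower in each. Dsc3, its partner in the basal layer, had 635, 291 and 455 CPM in WT at 24 h HCM and 154, 168 and 93.2 in PKP4-KO. In the 72 h HCM cultures it had 263, 291 and 104 CPM in WT and 102, 93.5 and 74.8 in PKP4-KO, a narrow separation, with WT replicate 3 the lowest of WT. The fold changes were -1.93 ± 0.39, -1.74 ± 0.39, -1.96 ± 0.39 and -1.29 ± 0.39, all past the test, with the highest adjusted p of 0.00691 at 72 h HCM.

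Dsc1, the desmocollin of the uppermost living layers, was called in 1 of the 4 conditions. It fell at 24 h HCM, from 25.8, 6.25 and 12.6 CPM in WT to 3.36, 4.48 and 1.63 in PKP4-KO (-2.21 ± 0.60 SE, adjusted p = 0.00333). The WT libraries were widely spread there, although none overlapped with PKP4-KO. At 24 h LCM the value was -1.21 ± 0.65 (adjusted p = 0.14), at 72 h LCM 0.45 ± 0.56 and at 72 h HCM 0.60 ± 0.55 (adjusted p = 0.521 and 0.369). In the last condition, WT had 35.1, 38.2 and 10.7 CPM and PKP4-KO 66.2, 32.6 and 29.3 CPM, and the libraries overlapped.

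The 72 h HCM values depend on the scaling, since PKP4-KO libraries of this group had the lowest TMM factors. Without TMM factors the median of all genes shifted by -0.76 on the log2 scale there, Dsg1a was called lower (-1.45, adjusted p = 0.0072), Dsg1b moved to -0.94 (adjusted p = 0.0655) and Dsc1 turned to -0.25 (adjusted p = 0.754). Dsg3, Dsc3, Dsc2 and Dsg2, still called, were at -2.46, -2.13, -2.79 and -5.93. In this setting 9401 of 15114 genes were called, 1268 of them higher and the rest lower. Leaving out WT replicate 3 also brought Dsg1a past the test (-0.93, adjusted p = 0.0309), and no call of a member in PKP4-KO against WT was lost when any single library was left out.

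**Figure D3:**
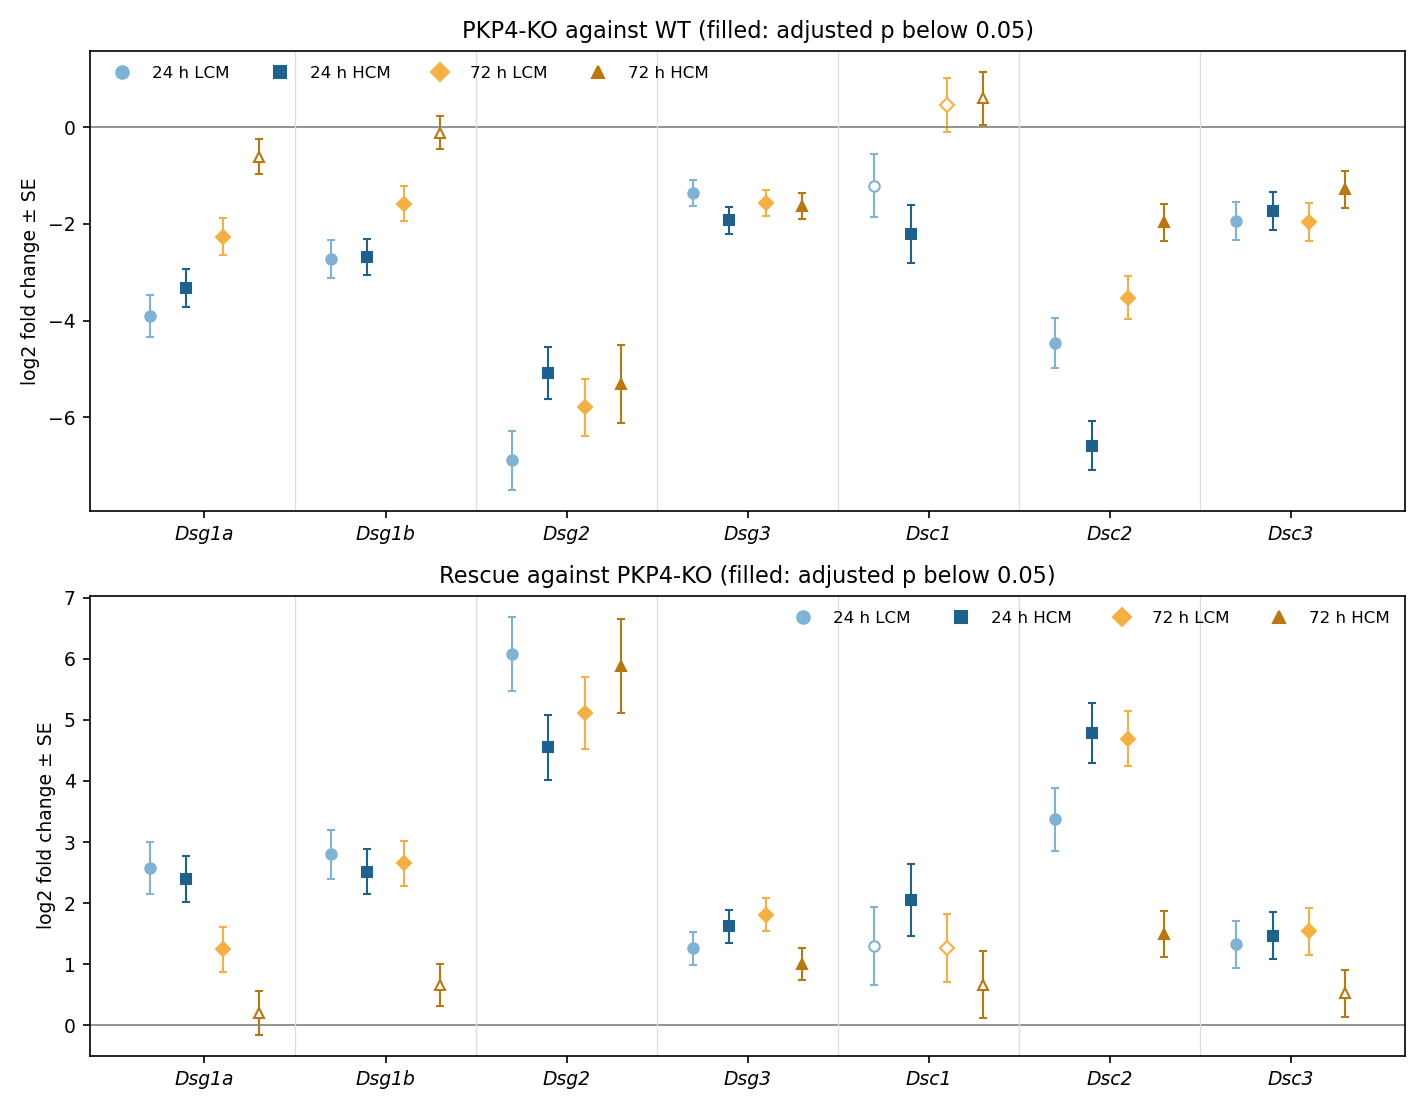
Log2 fold change ± SE of each desmosomal cadherin for PKP4-KO against WT (top) and Rescue against PKP4-KO (bottom) in the 4 culture conditions, filled where the adjusted p is below 0.05. With TMM factors, Dsg3 and Dsc3 stay between -1.96 and -1.29 in PKP4-KO against WT, while Dsg1a moves from -3.90 at 24 h LCM to -0.61 at 72 h HCM.

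Rescue was next compared with PKP4-KO cells, from which it differs by the vector, its transgene and the selection. No PKP4-KO group carried a vector without PKP4, so that these cannot be told apart. This comparison and that of PKP4-KO with WT use the same PKP4-KO libraries, so that opposite signs are partly built in. In Rescue, 6 of 7 members rose at 24 h LCM, where 18.2% of all genes were higher and 15.5% lower. All 7 rose at 24 h HCM (21.7% of all genes higher, 19.0% lower), 6 rose at 72 h LCM (23.3% higher, 18.3% lower) and 3 rose at 72 h HCM (37.2% higher, 29.5% lower). The last count, which consists of Dsg2, Dsg3 and Dsc2, is close to the background of its condition. The members' median log2 fold change was 2.57, 2.39, 1.81 and 0.66. That of all tested genes, which TMM scaling itself brings near 0, lay between -0.02 and 0.20. No member was called lower.

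Dsg2 in Rescue reached 95, 93 and 61 reads at 24 h LCM, 47, 47 and 90 at 24 h HCM, 111, 31 and 51 at 72 h LCM and 66, 64 and 65 at 72 h HCM. All of them lay above the 5 reads that were the most in any PKP4-KO library. The ratio of the summed counts, Rescue to PKP4-KO, was 75.0 (25.4 to 366), 24.0 (12 to 56.5), 38.9 (15.0 to 144) and 67.3 (11.9 to 2671) in the same order. Dsc2 rose to 8.08, 11.8 and 6.91 CPM at 24 h HCM (4.79 ± 0.49 SE on the log2 scale, adjusted p = 4.34e-09) and to 33.5, 16.1 and 16.5 CPM at 72 h LCM (4.69 ± 0.45, adjusted p = 1.82e-09). After 72 h in HCM it had 17.0, 18.3 and 24.6 CPM, above all PKP4-KO libraries, with a smaller change of 1.5 ± 0.38 (adjusted p = 0.00118).

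Among the suprabasal isoforms, Dsg1a had 60.3, 66.4 and 57.4 CPM and Dsg1b 34.0, 52.6 and 35.6 CPM in Rescue at 24 h HCM, all above PKP4-KO. Their log2 fold changes were 2.39 ± 0.38 (SE) and 2.51 ± 0.37, with adjusted p-values of 7.71e-06 and 2.11e-06. In the 72 h HCM cultures they had 42.6, 51.3 and 75.5 CPM and 56.9, 64.4 and 62.7 CPM. Neither passed the test there, with 0.21 ± 0.36 (adjusted p = 0.624) for Dsg1a, whose libraries overlapped, and 0.66 ± 0.35 (adjusted p = 0.0938) for Dsg1b, whose libraries did not. Dsc1 rose at 24 h HCM to 11.7, 19.5 and 8.99 CPM (2.05 ± 0.60, adjusted p = 0.00646) and had 61.1, 70.5 and 71.3 CPM at 72 h HCM (0.66 ± 0.55, adjusted p = 0.288).

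For the basal isoforms, Rescue libraries at 24 h HCM had 399, 487 and 505 CPM of Dsg3 and 332, 416 and 399 CPM of Dsc3, and no PKP4-KO library reached them. The changes were 1.62 ± 0.27 (SE; adjusted p = 1.45e-05) and 1.47 ± 0.39 (adjusted p = 0.00301). After 72 h in HCM, Dsg3 had 209, 214 and 217 CPM (1.01 ± 0.27, adjusted p = 0.00169) and Dsc3 110, 121 and 158 CPM (0.53 ± 0.38, adjusted p = 0.227). The Dsc3 libraries of the 2 groups did not overlap at 72 h HCM, but the difference did not pass the test.

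The count at 72 h HCM depended on the scaling and on the libraries in the fit. Without TMM factors, the median of all genes moved by 1.17 and 9877 of the 15114 tested genes were called higher. All 7 members were then called higher in Rescue, with Dsg1a at 1.39, Dsg1b at 1.84, Dsc1 at 1.84 and Dsc3 at 1.71. With only these 2 groups in the fit, 6 were called, Dsg1b (0.61, adjusted p = 0.0048), Dsc1 (0.62, 0.0275) and Dsc3 (0.48, 0.011) in addition. In that fit 10677 of 15114 genes were called, 5730 of them higher. Of the calls in the other conditions, that of Dsc3 at 24 h LCM was lost without PKP4-KO replicate 1 (1.03, adjusted p = 0.0625) or with only these groups in the fit (adjusted p = 0.0592) and that of Dsg1a at 72 h LCM without Rescue replicate 1 (0.87, adjusted p = 0.0868). Dsc1 did not pass in LCM (1.30 ± 0.64 SE, adjusted p = 0.127, at 24 h and 1.27 ± 0.56, adjusted p = 0.0694, at 72 h). It passed at 24 h without Rescue replicate 3 (1.71, adjusted p = 0.0418), and at 72 h without Rescue replicate 2 (1.55, 0.0323), without TMM factors (1.65, 0.0446) or without a filter on low counts (1.29, 0.0476). The summed Dsg1 copies were higher in Rescue by 2.70, 2.44 and 2.02 at 24 h LCM, 24 h HCM and 72 h LCM and had 0.42 (adjusted p = 0.266) at 72 h HCM.

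Rescue was also set against WT, from which it differs by isolate, allele and vector. At 24 h LCM, 2 members were called (24.8% of all genes were, in either direction), both lower in Rescue, Dsg1a at -1.33 ± 0.37 (SE; adjusted p = 0.00892) and Dsc2 at -1.09 ± 0.38 (adjusted p = 0.0359). At 24 h HCM only Dsc2 was called (23.2% of all genes), at -1.80 ± 0.37 (adjusted p = 0.000533). At 72 h LCM 4 members were called (32.4% of all genes), namely Dsg1a at -1.01 ± 0.36, Dsg1b at 1.07 ± 0.34, Dsc1 at 1.72 ± 0.56 and Dsc2 at 1.16 ± 0.36, with adjusted p-values of 0.0317, 0.0171, 0.0195 and 0.014. In the 72 h HCM cultures edgeR called none (36.2% of all genes), 2 members had an unadjusted p below 0.05, and DESeq2 called 1. Dsg3 and Dsc3 passed the test in none of the 4 conditions, with changes between -0.76 and 0.25 and, for Dsg3 at 72 h HCM, an adjusted p of 0.0623.

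Several of these calls rested on single libraries. That of Dsg1a at 24 h LCM was lost without WT replicate 1 or Rescue replicate 3 (adjusted p 0.0628 and 0.0655), and that of Dsc2 without replicate 1 or 3 of either group (0.061 to 0.174). At 72 h LCM, Dsg1a was lost without replicate 2 or 3 of either group (0.0733 to 0.169), Dsg1b without WT replicate 1 or 3 or Rescue replicate 1 (0.0728 to 0.165), Dsc1 without WT replicate 1 or 2 or Rescue replicate 1 (0.0556 to 0.139), and Dsc2 without WT replicate 2 or Rescue replicate 1 (0.0683 to 0.151). The Dsc2 call at 24 h HCM kept its side of the threshold without any single library. Without TMM factors, Dsc2 at 24 h LCM (adjusted p = 0.053) and Dsg1a and Dsg1b at 72 h LCM (adjusted p = 0.107 and 0.0704) did not pass, nor did they with only the groups compared in the fit (0.0636, 0.0592 and 0.0556), and the summed Dsg1 copies at 24 h LCM gave -0.70 (adjusted p = 0.135).

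Rescue cells differed from WT in the proportion of Dsg1a and Dsg1b. The ratio of Dsg1b to Dsg1a, per kb and within a library, was 0.766, 0.732 and 0.643 in WT at 24 h LCM and 1.61, 2.25 and 1.91 in Rescue. At 72 h LCM, WT libraries had 0.643, 0.81 and 0.545, PKP4-KO libraries 0.843, 1.47 and 1.09 and Rescue libraries 2.92, 3.58 and 2.37. All Rescue libraries lay above all WT libraries in each of the 4 conditions, and PKP4-KO libraries lay above WT in each condition except 72 h HCM, where the lowest of PKP4-KO (0.979) was below the highest of WT (0.996). Rescue lay above all PKP4-KO libraries only at 72 h LCM. The 2 groups overlapped at 24 h LCM (1.61 to 2.25 in Rescue and 0.918 to 2.71 in PKP4-KO), 24 h HCM and 72 h HCM. This ratio was chosen after the values had been seen and was not tested, and reads could be split or lost between the copies in counting. With the copies summed, neither call of Dsg1a and Dsg1b at 72 h LCM remained, with a log2 fold change of 0.01 (adjusted p = 0.995) between Rescue and WT.

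**Figure D4:**
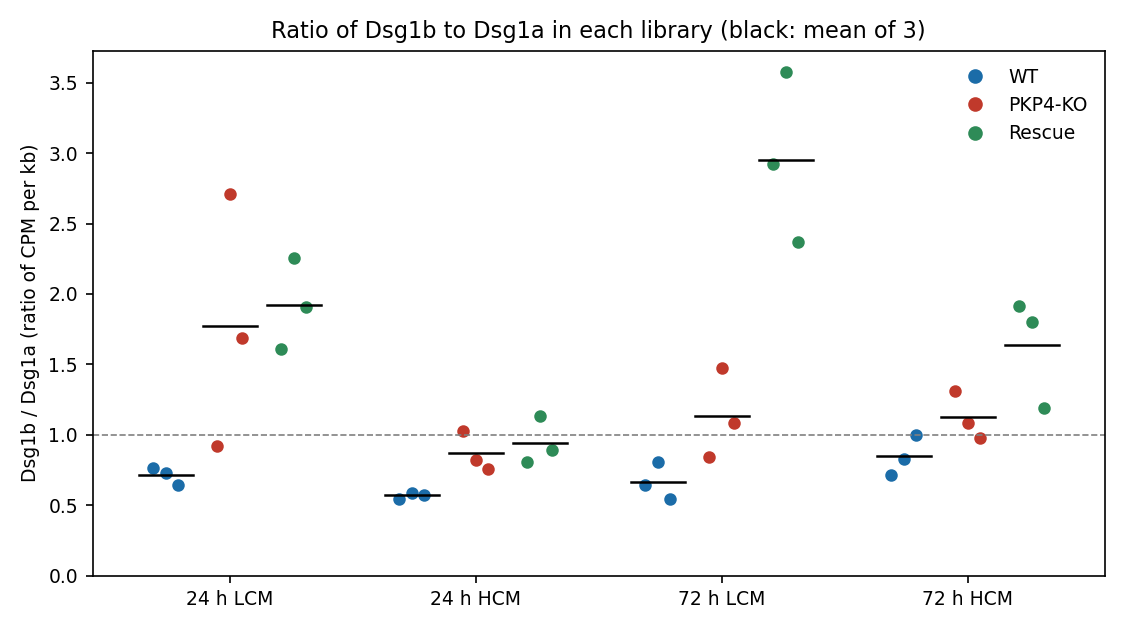
Ratio of Dsg1b to Dsg1a (CPM per kb) in each library by culture condition, with points for libraries and bars for the mean of 3. WT libraries lie between 0.545 and 0.996, and Rescue libraries reach up to 3.58 at 72 h LCM.

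The response to calcium was read from HCM against LCM within each kind of cell. At 24 h in WT, 5 members rose, while 14.2% of all genes were called in either direction. Dsg1a went from 30.0, 17.2 and 20.6 CPM in LCM to 176, 74.2 and 101 CPM in HCM (2.38 ± 0.38 SE, adjusted p = 3.66e-05), Dsg1b rose by 2.02 ± 0.36, Dsg3 by 1.18 ± 0.27, Dsc1 by 2.14 ± 0.60 and Dsc2 by 2.31 ± 0.38. HCM and LCM libraries did not overlap for any of these genes. Dsc3 had 0.84 ± 0.38 (adjusted p = 0.161), and Dsg2 had -0.60 ± 0.39 (adjusted p = 0.363). The Dsc1 call was lost without LCM replicate 2 or 3 or HCM replicate 1 (adjusted p 0.0623 to 0.118). Without TMM factors the calls of Dsg3 (0.90, adjusted p = 0.0952) and Dsc1 (1.89, adjusted p = 0.0609) were lost, and that of Dsc1 also with only these 2 groups in the fit (adjusted p = 0.0576).

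In Rescue cells at 24 h, 6 members rose in HCM (12% of all genes called), and only Dsg2 did not pass the test (-0.33 ± 0.39 SE, adjusted p = 0.695). Dsg1a rose by 2.77 ± 0.39, from 12, 10.02 and 4.78 CPM to 60.3, 66.4 and 57.4 CPM, and Dsc2 rose by 1.60 ± 0.38. In LCM, replicate 3 was the lowest Rescue library for each member but Dsg2. The calls of Dsc3 (1.18 ± 0.38, adjusted p = 0.0427), Dsc1 (1.89 ± 0.59, adjusted p = 0.0316) and Dsg3 (0.97 ± 0.26, adjusted p = 0.0137) were lost without it, with adjusted p-values of 0.222, 0.159 and 0.0997. The call of Dsc3 was also lost without any other of the 6 libraries, that of Dsc1 without LCM replicate 1 or HCM replicate 1 or 2, and that of Dsg3 without HCM replicate 3, at adjusted p-values of at least 0.0524, 0.0527 and 0.0506. The calls of Dsg3, Dsc1 and Dsc3 were lost without TMM factors too (adjusted p = 0.133, 0.105 and 0.18), and that of Dsc1 with only these 2 groups in the fit (adjusted p = 0.0616).

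PKP4-KO cells at 24 h had 2 members called (2.83% of all genes), Dsg1a and Dsg1b. Dsg1a rose from 1.76, 0.904 and 1.87 CPM to 12, 13.1 and 9.90 CPM (2.95 ± 0.43 SE, adjusted p = 8.76e-05) and Dsg1b from 1.13, 1.71 and 2.20 CPM to 8.58, 7.45 and 5.25 CPM (2.06 ± 0.40, adjusted p = 0.00274). HCM and LCM libraries were fully separated for both, but with only these 2 groups in the fit Dsg1b did not pass (2.09, adjusted p = 0.115). Dsc2 stayed at 15 reads in LCM and 19 in HCM over 3 libraries (0.19 ± 0.66, adjusted p = 0.97). The response of Dsc2 in PKP4-KO differed from that in WT by -2.13 ± 0.78, which did not pass the test (adjusted p = 0.157). No member was called in this test of the difference between responses at 24 h (4.02% of all genes were), 1 had an unadjusted p below 0.05, and DESeq2 called 1. Between Rescue and WT none was called either (0.0662% of all genes), and 0 had an unadjusted p below 0.05.

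At 72 h fewer members were called in WT and Rescue, and more in PKP4-KO. In WT, 2 members were called (21.4% of all genes), Dsc2 higher in HCM (1.48 ± 0.37 SE, adjusted p = 0.00361) and Dsg2 lower (-1.32 ± 0.41, adjusted p = 0.0197, lost without LCM replicate 2 or HCM replicate 3 at adjusted p-values of 0.081 and 0.0925). Dsg1a and Dsg1b had 0.31 ± 0.36 and 0.58 ± 0.34 and did not pass. In PKP4-KO, 4 members rose (32.6% of all genes called), Dsc2 by 3.04 ± 0.45, Dsg1b by 2.05 ± 0.36, Dsg1a by 1.97 ± 0.38 and Dsc1 by 1.62 ± 0.57. Dsc2 went from 1.1, 0.755 and 0.70 CPM to 8.64, 7.56 and 5.0 CPM and Dsg1a from 15.2, 8.97 and 13.2 CPM to 55.9, 49.0 and 41.9 CPM, without overlap. The Dsc1 call was lost without LCM replicate 2 or 3 or HCM replicate 1 (adjusted p 0.052 to 0.165) and without TMM factors (0.89, adjusted p = 0.259), where the median of all genes shifted by -0.69 and Dsc2, Dsg1b and Dsg1a, still called, were at 2.34, 1.35 and 1.26. In Rescue, edgeR called no member (24.9% of all genes), 1 had an unadjusted p below 0.05 and DESeq2 called 1. The highest value was that of Dsc1 (1.01 ± 0.55, adjusted p = 0.181), followed by Dsg1a (0.93 ± 0.36, adjusted p = 0.0599), and the summed Dsg1 copies had 0.41 (adjusted p = 0.376).

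Tested directly, the difference in calcium response between PKP4-KO and WT at 72 h passed edgeR's test for no member (5.74% of all genes called). Dsg1a (1.65 ± 0.52 SE, adjusted p = 0.0555), Dsg1b (1.47 ± 0.49, adjusted p = 0.0825) and Dsc2 (1.56 ± 0.58, adjusted p = 0.127) were the 3 with an unadjusted p below 0.05, and DESeq2 called 3. With the Dsg1 copies summed the difference passed (1.60 ± 0.48, adjusted p = 0.0424). Between Rescue and WT at 72 h, Dsc2 alone was called (14.6% of all genes), with a response in Rescue that differed from WT by -1.63 ± 0.51 (adjusted p = 0.0288). This call was lost without replicate 1 or 2 of WT LCM, of WT HCM or of Rescue HCM, or without replicate 1 of Rescue LCM (adjusted p 0.0543 to 0.0821), and without TMM factors (-1.29, adjusted p = 0.133).

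Time in culture was examined by comparing 72 h with 24 h in the same medium, using the libraries of the comparisons above. In LCM, WT had 2 members called (9.96% of all genes), Dsg1a (1.41 ± 0.37 SE, adjusted p = 0.0119) and Dsg1b (1.31 ± 0.35, adjusted p = 0.0155), both higher at 72 h. Both calls were lost without LCM replicate 2 or 3 of 24 h, and that of Dsg1b also without replicate 2 of 72 h (adjusted p 0.0513 to 0.0957), and without TMM factors neither held (1.18 and 1.08, adjusted p = 0.109 and 0.135). PKP4-KO had 4 called (26.1% of all genes) and Rescue 4 (9.81%), and these were Dsg1a, Dsg1b, Dsc1 and Dsc2, all higher. Dsc1 rose by 3.25 ± 0.64 in PKP4-KO, from 0.353, 1.81 and 2.06 CPM to 17.4, 6.96 and 17.2 CPM, and by 3.22 ± 0.61 in Rescue, from 3.87, 5.71 and 0.982 CPM to 54.2, 18.3 and 27.6 CPM. The Dsc2 call in PKP4-KO (1.60 ± 0.59, adjusted p = 0.0451) was lost without PKP4-KO replicate 2 or 3 of 24 h or any replicate of 72 h (adjusted p 0.0523 to 0.255) and without TMM factors (1.24, adjusted p = 0.143). With only the groups compared in the fit, it was lost too (adjusted p = 0.213), as was that of Dsg1a in Rescue (1.76, adjusted p = 0.0859). Dsg3 and Dsc3 did not pass the test in LCM in any kind of cell.

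In HCM, WT had 2 members called (17.8% of all genes), Dsg3 (-0.80 ± 0.26 SE, adjusted p = 0.0342) and Dsg2 (-1.27 ± 0.41, adjusted p = 0.0306), both lower at 72 h. The first was lost without HCM replicate 1 or 3 of 24 h or replicate 3 of 72 h, and the second without replicate 1 or 2 of 24 h or replicate 1 or 3 of 72 h (adjusted p 0.0502 to 0.217). Neither held with only these 2 groups in the fit (adjusted p = 0.224 for Dsg3 and 0.112 for Dsg2), Dsg3 did not pass without TMM factors (-1.01, adjusted p = 0.055), and Dsg2 did not pass without a filter on low counts (adjusted p = 0.0514). In Rescue 4 were called (24.3% of all genes), Dsc1 (2.34 ± 0.57) and Dsc2 (1.16 ± 0.36) higher and Dsg3 (-1.12 ± 0.27) and Dsc3 (-1.56 ± 0.39) lower, the call of Dsc2 being lost without replicate 1 or 3 of 24 h or replicate 3 of 72 h (adjusted p 0.0734 to 0.0937). In PKP4-KO 4 of the 7 were called, all higher, with 4.45 ± 0.50 for Dsc2, 3.73 ± 0.63 for Dsc1, 2.45 ± 0.37 for Dsg1b and 2.07 ± 0.38 for Dsg1a. This count is close to the share of all genes called in either direction (55.8%), while 3677 of 15114 were called higher. Without TMM factors, where the median of all genes shifted by -1.07, Dsg1a did not pass (0.99, adjusted p = 0.0565) and Dsg3 and Dsc3 were called lower (-1.59 and -1.72, adjusted p = 0.000437 and 0.00288), so that 3 members were higher and 2 lower. In this setting 10454 of 15114 genes were called, 1315 of them higher and the rest lower.

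**Figure D5:**
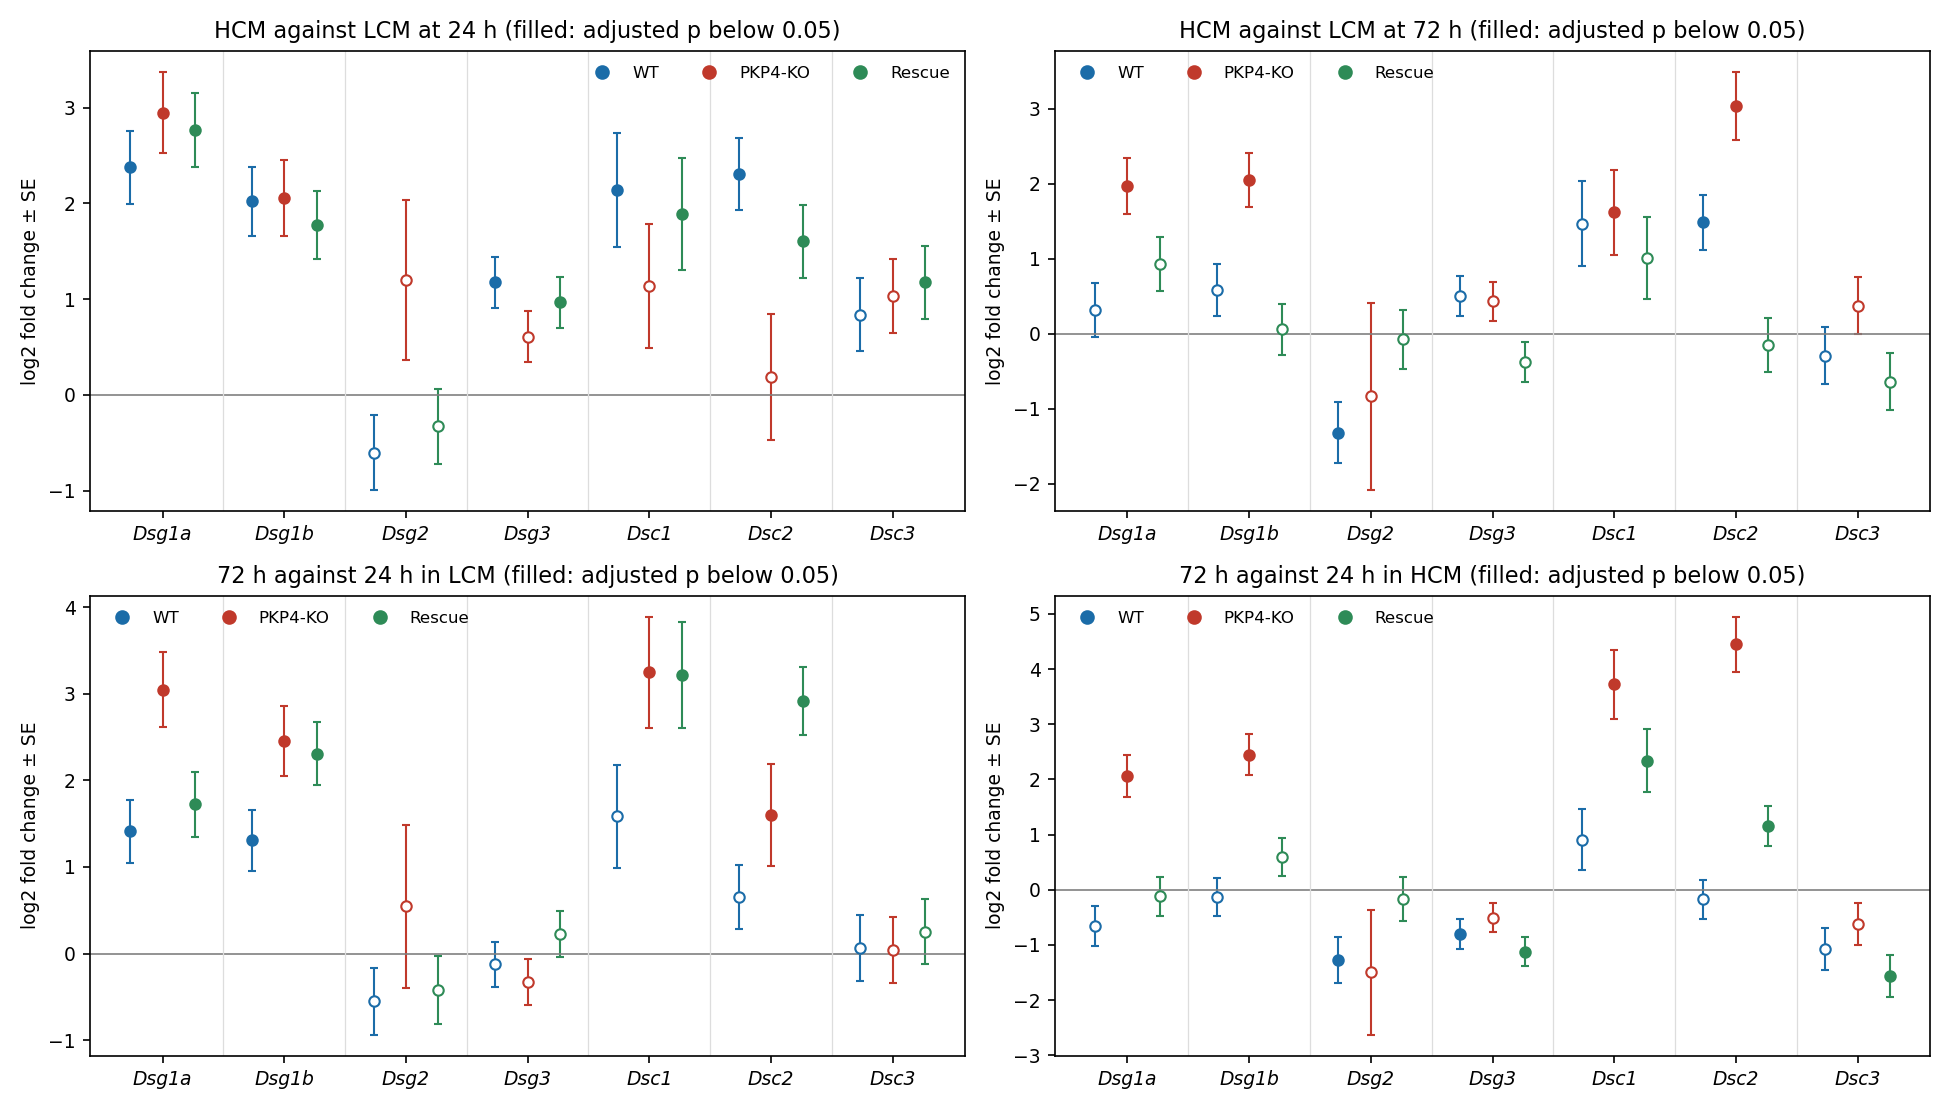
Log2 fold change ± SE of each desmosomal cadherin for HCM against LCM (top, 24 h and 72 h) and for 72 h against 24 h (bottom, LCM and HCM) in WT, PKP4-KO and Rescue cells, filled where the adjusted p is below 0.05. In HCM, Dsc2 changes by 4.45 with time in PKP4-KO and by -0.17 in WT.

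The difference of the time response between PKP4-KO and WT was tested after these values had been seen. In HCM, 4 members differed (26.6% of all genes called), Dsc2 by 4.62 ± 0.62 (SE; adjusted p = 1.67e-06), Dsc1 by 2.82 ± 0.81 (adjusted p = 0.0103), Dsg1a by 2.72 ± 0.52 (adjusted p = 0.00023) and Dsg1b by 2.58 ± 0.50 (adjusted p = 0.000262), each with the greater gain in PKP4-KO. These calls held without any single library. Without TMM factors the differences were 3.76, 1.95, 1.85 and 1.72, and that of Dsc1 no longer passed (adjusted p = 0.0855). For Dsg3 and Dsc3 they were 0.29 ± 0.37 and 0.45 ± 0.54, with adjusted p-values of 0.588 and 0.566. In LCM no member was called by edgeR (5.25% of all genes), 2 had an unadjusted p below 0.05, and DESeq2 called 1.

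The markers of keratinocyte differentiation also moved with these groups, and their part in the cadherin values was not tested. Krt10, a keratin of suprabasal cells, averaged 533 ± 96.2 CPM (SD, n = 3) for WT, 4437 ± 393 for PKP4-KO and 424 ± 110 for Rescue at 72 h HCM, and its partner Krt1 averaged 39.7 ± 3.6, 3752 ± 101 and 17.8 ± 0.321. Ivl and Lor, which encode involucrin and loricrin of the cornified envelope, went the other way, with 144 ± 17.1 and 239 ± 13.7 CPM in WT and 20.3 ± 3.06 and 40.5 ± 4.43 in PKP4-KO. Of the 7 suprabasal markers, PKP4-KO had 2 higher and 4 lower at 24 h HCM, and 4 higher and 2 lower at 72 h HCM. Of the 5 basal markers, 2 were higher and 0 lower at 24 h HCM, and 0 were higher and 1 lower at 72 h HCM, where edgeR's unadjusted p was below 0.05 for 2.

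The cytoplasmic partners of the cadherins had smaller median changes. Of the 8 plaque genes Jup, Dsp, Pkp1, Pkp2, Pkp3, Evpl, Ppl and Perp, the last of which codes for a membrane protein, 5 fell in PKP4-KO at 24 h LCM and 7 at 24 h HCM, and none rose. At 72 h LCM 3 fell and 1 rose, and at 72 h HCM 1 fell and 3 rose, the shares of all genes being those given above. Their median log2 fold change was -0.68, -1.10, -0.13 and 0.17 in the 4 conditions, against -2.73, -2.69, -1.96 and -1.29 for the cadherins. Ppl, which encodes periplakin, fell in each condition, between -2.17 ± 0.28 (SE) at 24 h HCM and -1.28 ± 0.27 at 72 h LCM. Pkp2, a plakophilin of simple epithelia, was -1.54 ± 0.46 at 24 h LCM (adjusted p = 0.00844) and 2.11 ± 0.39 at 72 h LCM (adjusted p = 7.12e-05). Its reads were few, with 15, 27 and 11 in WT and 6, 8 and 4 in PKP4-KO at 24 h LCM. At 72 h LCM they were 31, 29 and 26 in WT and 130, 60 and 76 in PKP4-KO. Dsp, encoding desmoplakin, fell at 24 h HCM (-1.06 ± 0.31, adjusted p = 0.00739, lost without TMM factors at 0.0534) and at 72 h LCM (-0.87, adjusted p = 0.0258). Jup, encoding plakoglobin, fell at 24 h HCM by 1.15 ± 0.20 and rose at 72 h HCM by 0.75 ± 0.20. Without TMM factors, however, none of the 8 was called higher and 5 were called lower at 72 h HCM, Dsp among them (-1.55, adjusted p = 0.00217), and Pkp3 and Perp changed sign. Of all 15114 tested genes, 9401 were called in that setting, 1268 of them higher and the rest lower. In LCM at 72 h, 5 instead of 3 plaque genes were then lower, and Pkp1 turned from 0.03 to -0.37 (adjusted p = 0.048). There, 6747 of all genes were called, 1733 of them higher and the rest lower.

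Compared with PKP4-KO, Rescue cells had 5 of the 8 plaque genes higher at 24 h LCM and 8 at 24 h HCM, with none lower. At 72 h LCM 3 were higher and 1 lower, and at 72 h HCM 3 were higher and 4 lower, among them Pkp1 (-1.06 ± 0.12 SE), Perp (-0.96 ± 0.15) and Evpl (-1.03 ± 0.25). These 3 and Pkp3 turned positive without TMM factors, where 4 of the 8 were higher and 1 was lower, while 9877 of all 15114 tested genes were higher. The same setting gave 6 of the 8 higher and 0 lower at 72 h LCM, with Pkp2 at -0.88 (adjusted p = 0.0593). Of all genes, 4873 were higher there. The classical cadherin gene Cdh1, encoding E-cadherin, was called lower in PKP4-KO in all 4 conditions and higher in Rescue against PKP4-KO in all 4, and Cdh3, encoding P-cadherin, was called in PKP4-KO only at 72 h HCM, where it was lower. Of 5 genes for proteases that can act on cadherins or their inhibitor, 1 rose and 3 fell in PKP4-KO at 24 h LCM, 0 rose and 4 fell at 24 h HCM, 1 and 3 at 72 h LCM, and 1 and 4 at 72 h HCM. Adam10, whose product sheds cadherin ectodomains, was among those that fell in each condition.

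Near the cluster, 4 protein-coding genes other than the members were tested within 1 Mb, Dsg4, Trappc8, Rnf138 and Garem1. In PKP4-KO against WT, Garem1 was -2.44 at 24 h LCM and -2.73 at 24 h HCM (adjusted p = 7.21e-07 and 6.77e-08), -1.26 at 72 h LCM (adjusted p = 0.00134) and -0.14 at 72 h HCM (adjusted p = 0.723). Trappc8 was called lower in 3 of the 4 conditions, with -1.90 at 72 h HCM (adjusted p = 0.000741). Rnf138 was called lower in LCM (-0.59 at 24 h, adjusted p = 0.0487, and -0.58 at 72 h, adjusted p = 0.0463) and not in HCM (adjusted p = 0.999 at 24 h and 0.202 at 72 h). Dsg4 was called only at 24 h HCM (-4.81 ± 1.37 SE, adjusted p = 0.00614), from 8, 14 and 11 reads in WT and 0, 1 and 0 in PKP4-KO. In Rescue against PKP4-KO, Garem1 was called higher at 24 h LCM, 24 h HCM and 72 h LCM (1.80, 2.47 and 1.28). It was at -0.06 at 72 h HCM (adjusted p = 0.866). Trappc8 was called only at 72 h HCM (2.36), Dsg4 at 24 h HCM (4.05) and 72 h LCM (4.92), all higher, and Rnf138 in no condition.

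Over the 12 group means, on the scale of log2(CPM + 0.1), the members fell into patterns that are given here as a description, since the groups share genotypes, media and times. Dsg3 and Dsc3 followed each other with a Pearson r of 0.95, and Dsg1a and Dsg1b with 0.92. Dsc2 went with Dsg1b (0.91) and Dsg1a (0.86), while Dsc1 was nearest to Dsg1b (0.88) and showed 0.2 with Dsg3 and 0.11 with Dsc3. Dsg2 was nearest to Dsg3 (0.84) and Dsc3 (0.83).

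Among 12555 other protein-coding genes, those with a profile most like that of a member were found in the same way. For Dsg1a these were Anxa1 (r = 0.972), Usp54 (0.956) and Tuft1 (0.951), and for Dsg1b Pcdh1 (0.979), Ankrd22 (0.97) and Bpifc (0.968). Dsg2 was most like Pxdn (0.989), Abca2 (0.979) and Asap1 (0.977), and Dsg3 most like Srp54c (0.971), Pls3 (0.965) and Ikzf2 (0.964). Dsc1 was closest to Krt80 (0.967), a keratin gene, Tmprss11a (0.962) and Atp6v0d1 (0.961). Dsc2 was closest to Septin8 (0.984), Pacsin3 (0.977) and Cemip (0.973), and Dsc3 to Dnajb4 (0.967), Psmd14 (0.954) and Pls3 (0.943), which was near both basal isoforms.

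In the order of the 12 group means, few neighbours were separated by their libraries. Dsg1a ranged from 117 CPM (WT 24 h HCM) to 1.51 (PKP4-KO 24 h LCM), and in 9 of 11 neighbouring pairs the libraries overlapped. Dsg1b ranged from 61.4 (Rescue 72 h HCM) to 1.68 (PKP4-KO 24 h LCM) with 8 overlapping pairs. Dsg3 and Dsc3 were both highest in WT at 24 h HCM, at 574 and 460 CPM, and lowest in LCM cultures of PKP4-KO, Dsg3 at 72 h (78.8) and Dsc3 at 24 h (67.5). They had 10 and 9 overlapping pairs. Dsc1 was highest in Rescue at 72 h HCM (67.6) and lowest in PKP4-KO at 24 h LCM (1.41), with 10 overlapping pairs. Dsc2 ranged from 31.1 (WT 24 h HCM) to 0.293 (PKP4-KO 24 h HCM) with 7, and Dsg2 from 7.16 (WT 24 h LCM) to 0.0379 (PKP4-KO 72 h HCM) with 8. All PKP4-KO libraries lay below all others for Dsg2.

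Within groups, the library with the lowest TMM factor was set against the library with the lowest level of each cadherin. They were the same in 10 of 12 groups for Dsg3 and Dsc3, in 9 for Dsg1b and Dsc1 and in 8 for Dsg1a. For Dsg2 and Dsc2 it was 6. The lowest Dsg2 level was tied at 0 reads in PKP4-KO at 24 h LCM and at 72 h HCM. The 6 of Dsg2 include the tie at 24 h LCM and not that at 72 h HCM. With 3 libraries in a group, some matches arise by chance, and their number was not tested. The part of the TMM factor in the differences between groups was not tested.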

How the data were processed

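Per the labels and the methods of the study, the authors aligned reads with HISAT2 2.1.0 and SAMtools 1.10 and counted them per gene with featureCounts 2.0.0 on GRCm39 (mm39), and the deposited values were raw read counts. Sequencing was strand-specific and secondary alignments were removed, per the study's methods. The strand and multi-mapping options of featureCounts were not given in the sources used here. Here, genes were filtered with filterByExpr, leaving 15114, all 7 members among them, and 1 model of 12 groups was fitted to all 36 libraries with edgeR 4.0.16 (R 4.3.3, quasi-likelihood test, TMM factors, 24 residual degrees of freedom). P-values were adjusted after Benjamini and Hochberg over all tested genes, and a gene was called at an adjusted p below 0.05. Levels are CPM, divided by the gene length in the table where genes are compared. Exact intervals of count ratios cover counting error only. Named genes were the members, Dsg1c and Dsg4, the plaque genes, Pkp4 and its transgene, and the 3 genes of most similar profile for each member. Other genes (the keratins, Ivl, Lor, Cdh1, Cdh3, Adam10, Trappc8, Rnf138 and Garem1) were named after their values had been seen. The members and lists were chosen with earlier results of these data known. Alternatives were DESeq2 1.42.0, library sizes without TMM factors, other filters, only the groups compared in the fit, a replicate block, summed Dsg1 copies and each library left out. The method was tested on simulated data. No libraries of a group agreed within sampling noise, and 37 mitochondrial genes had no reads.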

Additional observations from a re-analysis of the deposited data

Results flagged for a closer look

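The calcium response of Dsc2 at 72 h differed between Rescue and WT by -1.63 ± 0.51 (SE) on the log2 scale in edgeR's interaction test (adjusted p = 0.0288). This call was lost in 7 of 12 fits that left out a single library, and without TMM factors (-1.29, adjusted p = 0.133). In HCM, the change from 24 h to 72 h differed between PKP4-KO and WT by 2.72 ± 0.52 for Dsg1a, 2.58 ± 0.50 for Dsg1b, 2.82 ± 0.81 for Dsc1 and 4.62 ± 0.62 for Dsc2, again by a test of the difference. These time differences were tested after the values had been seen, and that of Dsc1 did not pass without TMM factors (adjusted p = 0.0855).

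The difference between Rescue and WT took opposite directions in different culture conditions for 2 members, with libraries of the groups separated each time. Dsg2 was at -0.82 at 24 h LCM and -0.69 at 72 h LCM, against 0.56 at 72 h HCM, none of which passed the test of its own condition. The difference between the 72 h cultures, the calcium response of Rescue minus that of WT, did not pass edgeR's test (1.25 ± 0.57, adjusted p = 0.13), and that between 24 h LCM and 72 h HCM was not tested. Dsc2 was at -1.09 at 24 h LCM and -1.80 at 24 h HCM, against 1.16 at 72 h LCM, and these differences were not tested. Groups of 3 libraries were not examined for outlying values.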

How the results depend on the processing

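The number of members called moved in some comparisons, and the cause was not tested unless the setting itself gives it. Requiring at least 10 counts in every library left only Dsg1a, Dsg1b, Dsg3 and Dsc3 to be tested, with 3 (WT 24 h), 0 (WT 72 h), 2 (PKP4-KO 72 h) and 1 (Rescue 72 h) called for calcium, 1 (WT HCM) and 2 (PKP4-KO LCM, PKP4-KO HCM, Rescue LCM, Rescue HCM) for time, 4 and 2 for PKP4-KO against WT and 4 and 1 for Rescue against PKP4-KO (24 h and 72 h HCM), 1, 0 and 2 for Rescue against WT (24 h LCM, 24 h HCM, 72 h LCM), 1 and 0 for the calcium differences at 72 h (PKP4-KO, Rescue) and 2 for the time difference in HCM. Of the 9923 genes tested under this filter, 809 (calcium difference of PKP4-KO, 72 h) to 7346 (Rescue against PKP4-KO, 72 h HCM) were called in these comparisons. Without TMM factors, 3 were called for calcium at 24 h in WT and in Rescue, 0 and 1 for time in WT LCM and HCM, 7 for Rescue against PKP4-KO at 72 h HCM, 1 and 2 for Rescue against WT at 24 h and 72 h LCM and 0 for the calcium difference of Rescue at 72 h. Over all 15114 genes, the counts in the same order were 2368, 1305, 1266, 2617, 11662, 3013, 4000 and 2294. With only the groups compared, the counts were 1 (calcium, PKP4-KO 24 h), 0 (time, WT HCM), 6 (Rescue against PKP4-KO, 72 h HCM) and 2 (Rescue against WT, 72 h LCM). Over all 15114 genes, 8, 575, 10677 and 3652 were called in this order. DESeq2 called 1 (calcium, Rescue 72 h), 2 and 1 (Rescue against WT, 24 h and 72 h HCM), 1 and 3 (calcium difference of PKP4-KO, 24 h and 72 h), 2 (that of Rescue, 72 h) and 1 (time difference, LCM), and no filter gave 1 (calcium difference of PKP4-KO, 72 h), while for time in WT HCM it lost Dsg2 and gained Dsc3 at a count of 2. With no filter, 503 and 1827 of 28780 genes were called in the latter 2 comparisons. The replicate block gave 1 for calcium in Rescue at 72 h (Dsg1a, 1.01, adjusted p = 0.0329) and 1 for the calcium difference of PKP4-KO at 72 h (Dsg1a, 1.71, adjusted p = 0.0346), and changed no other call. With the block, 3680 and 841 of 15114 genes were called in these comparisons. Numbers did not pair the libraries: same-numbered libraries had a median correlation of -0.05 (-0.65 to 0.72), and in 2 of 24 comparisons every pair was above 0.1. Leaving out single libraries gave 1 to 2 (WT 72 h), 3 to 5 (Rescue 24 h) and 0 to 1 (Rescue 72 h) for calcium, 0 to 2 (WT LCM) and 0 to 3 (WT HCM) for time, 0 to 2, 1 to 2, 1 to 3 and 0 to 2 for Rescue against WT (24 h LCM, 24 h HCM, 72 h LCM, 72 h HCM), and 0 to 2 for the calcium differences of PKP4-KO at 24 h and Rescue at 72 h. Signs reversed for values that had not passed a test: Dsg1b at 72 h HCM (PKP4-KO against WT) ranged from -0.3645 to 0.0998 without single libraries (0.0998 without WT replicate 2 and 0.0688 without PKP4-KO replicate 3) and was 0.0111 in DESeq2, Dsc1 there was -0.25 without TMM factors, and Dsg1a in Rescue against PKP4-KO at 72 h HCM ranged from -0.0588 (without Rescue replicate 3) to 0.3745. The called Dsg1a in Rescue against WT at 72 h LCM became 0.00768 with the copies summed. Of 84 group levels, 20 moved by over 1 SD without TMM factors. Depth limits Dsg2 and Dsc2 in PKP4-KO, where most libraries held few reads.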
